A study of Mus musculus with 12 samples.

Results

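Rag1, Rag2, Iftap and Dntt were examined in whole bone marrow of young mice that had or had not been irradiated and that received vehicle or parathyroid hormone (PTH). The genes were chosen by symbol, and all 5 array rows that carry one of the 4 symbols were used, out of 21789 rows with a single gene symbol, which cover 19938 genes. Earlier results of these data were known when the genes were chosen: Iftap and Rag1 had been named for their fall with irradiation. The differences with irradiation of all 5 rows are therefore given below as a description, without a test.

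B6 mice were studied at 16 days of age in 4 groups of 3 arrays each. The nonirradiated vehicle and nonirradiated PTH groups received vehicle or PTH from day 11 to day 15, for 5 days, with no irradiation. The irradiated vehicle and irradiated PTH groups had a sub-lethal exposure of 2 fractions of 310 cGy on day 10 and the same 5 days of vehicle or PTH. PTH raises blood calcium and, given intermittently, builds bone. Marrow was flushed from the long bones and total RNA of all its cells was measured, so every lineage that the marrow holds contributes. Whether each array is a separate mouse or a pool is not stated, so p-values measure the spread between these samples alone, part of which may be technical. Of 12 genes that mark marrow lineages, 11 were measured, and 10 of these lay above the median of the array on all 12 arrays. The exception was Cd79a, a B cell receptor component, whose mean was 8.89 ± 0.448 in nonirradiated vehicle marrow and 6.43 ± 0.363 in irradiated PTH marrow (SD, n = 3).

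By Xist and 3 Y-linked genes, 0 of 3 nonirradiated vehicle arrays, 3 of 3 nonirradiated PTH arrays and 1 of 3 arrays in each irradiated group had the female pattern. The interquartile range was 2.86 on nonirradiated vehicle replicate 3, 2.88 on irradiated PTH replicate 3 and 3.13 to 3.25 on the other arrays. The deposited values are log2 expression without a detection call, so whether a row lay above background was not measured in any group. Levels are compared below within a row or list, or set against the median of the array. Differences between groups are also set side by side across rows.

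The proteins RAG1 and RAG2 together form the recombinase that cuts DNA at the recombination signals beside antigen receptor gene segments, the first step in building immunoglobulin and T cell receptor genes. Dntt encodes terminal deoxynucleotidyl transferase, a polymerase that adds nucleotides without a template at the joints between segments and is largely absent from fetal lymphocytes. In marrow, these 3 genes are known mainly from developing B cells and early lymphoid progenitors. Iftap encodes an intraflagellar transport-associated protein, is also listed as NWC, and lies beside Rag2 and Rag1 on mouse chromosome 2. In the RefSeq table of GRCm38.p6 the gene interval of Iftap overlaps that of Rag2, which is read from the opposite strand, while Rag1 is read from the same strand as Iftap. Dntt lies apart, on chromosome 19.

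The sequences around the starts of the 4 genes are shown as a description, and nothing on shared regulation is read from them. RefSeq promoter windows of GRCm38.p6 matched all 4 genes, with 5 windows of 250 bases before to 50 after a start, and Iftap had a pair of starts. Which of these Iftap starts belongs to which Iftap array row is not known. The windows follow gene by gene. Each window is printed 5′ to 3′ on the strand of the gene. Capitals mark CANNTG, the E-box core bound by basic helix-loop-helix factors such as the protein of Tcf3. The windows lie at chr2:101649483-101649782 on the minus strand for Rag1, chr2:101624462-101624761 on the plus strand for Rag2 and chr19:41029025-41029324 on the plus strand for Dntt. Those of Iftap lie at chr2:101620997-101621296 for start 1 and chr2:101628982-101629281 for start 2, both on the minus strand.
Rag1: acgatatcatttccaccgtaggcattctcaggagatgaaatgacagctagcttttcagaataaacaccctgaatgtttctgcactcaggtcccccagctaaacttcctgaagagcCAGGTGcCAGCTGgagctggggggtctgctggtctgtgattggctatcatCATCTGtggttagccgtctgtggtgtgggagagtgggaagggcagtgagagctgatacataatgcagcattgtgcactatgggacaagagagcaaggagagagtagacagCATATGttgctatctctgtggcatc
Rag2: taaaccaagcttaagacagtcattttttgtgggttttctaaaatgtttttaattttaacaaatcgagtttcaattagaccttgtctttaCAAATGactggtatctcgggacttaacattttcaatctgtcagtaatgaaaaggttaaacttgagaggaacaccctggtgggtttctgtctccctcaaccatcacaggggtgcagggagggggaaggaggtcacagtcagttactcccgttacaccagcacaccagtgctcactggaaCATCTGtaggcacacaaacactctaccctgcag
Dntt: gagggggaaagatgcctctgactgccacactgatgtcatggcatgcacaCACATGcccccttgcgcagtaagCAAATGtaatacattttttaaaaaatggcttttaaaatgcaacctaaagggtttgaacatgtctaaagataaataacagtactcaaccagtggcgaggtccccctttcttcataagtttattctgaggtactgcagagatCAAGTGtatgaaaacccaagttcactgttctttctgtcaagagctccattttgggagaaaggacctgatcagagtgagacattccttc
Iftap start 1: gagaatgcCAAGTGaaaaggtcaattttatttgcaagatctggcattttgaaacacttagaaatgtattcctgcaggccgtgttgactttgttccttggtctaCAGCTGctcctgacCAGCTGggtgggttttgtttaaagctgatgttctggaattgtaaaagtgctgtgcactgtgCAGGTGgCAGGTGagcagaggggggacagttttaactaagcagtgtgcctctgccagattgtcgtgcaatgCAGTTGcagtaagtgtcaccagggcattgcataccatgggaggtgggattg
Iftap start 2: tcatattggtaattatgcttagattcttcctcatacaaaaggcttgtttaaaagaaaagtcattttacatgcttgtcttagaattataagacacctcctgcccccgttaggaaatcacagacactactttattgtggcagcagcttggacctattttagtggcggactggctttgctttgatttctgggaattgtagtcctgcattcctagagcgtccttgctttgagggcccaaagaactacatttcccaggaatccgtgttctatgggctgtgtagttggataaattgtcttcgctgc

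CANNTG, which reads the same on both strands, occurred 4 times in the Rag1 window, 2 times for Rag2, 3 times for Dntt, 6 times at Iftap start 1 and 0 times at Iftap start 2. Of 32851 windows of the same length, 72.3% held it. The core of ETS factor sites, GGAA, searched on both strands, occurred 3, 3, 2, 3 and 6 times in the same order, and 96% of windows held it. CCAAT occurred once in the Rag1 window and once at Iftap start 2, in either orientation, and in 37.4% of all windows. TATAAA (13.6% of windows) and TGTTTAC, a forkhead core (3.65%), had 0 matches in these 5 windows. Matches of different motifs may share bases, and a match is a description of letters only.

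Irradiated marrow held less Rag1 RNA than nonirradiated marrow on every array. Rag1 read 9.03, 9.00 and 8.92 in nonirradiated vehicle, 8.82, 8.85 and 8.92 in nonirradiated PTH, 6.96, 5.97 and 6.74 in irradiated vehicle and 5.52, 6.32 and 6.36 in irradiated PTH marrow. The 6 nonirradiated arrays lay close together and the 6 irradiated arrays lay below them with a gap of 1.86. The difference with irradiation was -2.42 (SE 0.255) in vehicle marrow, a 5.37-fold lower level, and -2.80 (SE 0.255) in PTH marrow, 6.97-fold lower. The spread was larger after irradiation, with an SD of 0.0542 and 0.0536 in the nonirradiated groups and 0.518 and 0.476 in the irradiated ones. The SEs and intervals of Rag1 here and below rest on 1 spread shared by all 4 groups. They are thus too wide for nonirradiated groups compared with each other and too narrow for irradiated ones. In whole marrow, fewer cells that carry a transcript and less of it per cell cannot be told apart.

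Rag2, which encodes the partner of RAG1 in the recombinase, showed the same separation at smaller differences. It read 7.55, 6.98 and 7.39 in nonirradiated vehicle, 7.48, 6.99 and 8.04 in nonirradiated PTH, 5.51, 5.23 and 6.10 in irradiated vehicle and 5.42, 5.46 and 5.95 in irradiated PTH marrow. All irradiated arrays lay below all nonirradiated ones, with a gap of 0.88. The difference was -1.69 (SE 0.285) in vehicle and -1.89 (SE 0.285) in PTH marrow, 3.24-fold and 3.71-fold lower. Every irradiated value of Rag2, 5.23 to 6.10, lay under the median of every array, 6.18 to 6.25. The Rag1 mean in irradiated PTH marrow, 6.06, lay under these medians too. Whether these levels lay above background, and so could show a larger fall, was not measured.

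Dntt, the junctional polymerase on another chromosome, separated the arrays in the same way. It read 8.04, 8.65 and 8.37 in nonirradiated vehicle, 8.84, 8.41 and 9.41 in nonirradiated PTH, 6.99, 6.78 and 6.66 in irradiated vehicle and 6.11, 7.29 and 6.92 in irradiated PTH marrow. The lowest nonirradiated array lay 0.75 above the highest irradiated one. The difference was -1.54 (SE 0.302) in vehicle and -2.11 (SE 0.302) in PTH marrow, 2.91-fold and 4.33-fold lower.

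The pair of Iftap rows disagreed. Array row 10485370, annotated with 1 transcript accession, was lower in irradiated marrow as Rag1 was, and array row 10485361, annotated with 7 accessions of which that one is part, did not separate the groups. The sources used here do not give where along the gene the probes of each row lie. The single-accession row read 9.45, 8.92 and 9.59 in nonirradiated vehicle, 9.19, 8.91 and 9.77 in nonirradiated PTH, 6.93, 6.40 and 6.88 in irradiated vehicle and 6.17, 6.68 and 6.46 in irradiated PTH marrow. Its gap between nonirradiated and irradiated arrays, 1.99, was the widest of the 5 rows, and its differences were -2.59 (SE 0.247) in vehicle and -2.85 (SE 0.247) in PTH marrow.

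The multi-accession Iftap row read 6.73, 5.55 and 5.39 in nonirradiated vehicle, 6.02, 5.56 and 5.94 in nonirradiated PTH, 5.37, 5.44 and 6.23 in irradiated vehicle and 5.40, 5.84 and 6.37 in irradiated PTH marrow. All 4 groups overlapped, and both the highest nonirradiated and the highest irradiated array lay more than 1 SD above their group's mean. The difference was -0.21 (SE 0.359) in vehicle and 0.03 (SE 0.359) in PTH marrow. A statement on Iftap as a gene thus depends on the row. Group means of the multi-accession row, 5.68 to 5.89, lay under the median of every array, 6.18 to 6.25. Whether this row lay above background in any group, and so could show a fall, was not measured.

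**Figure D1:**
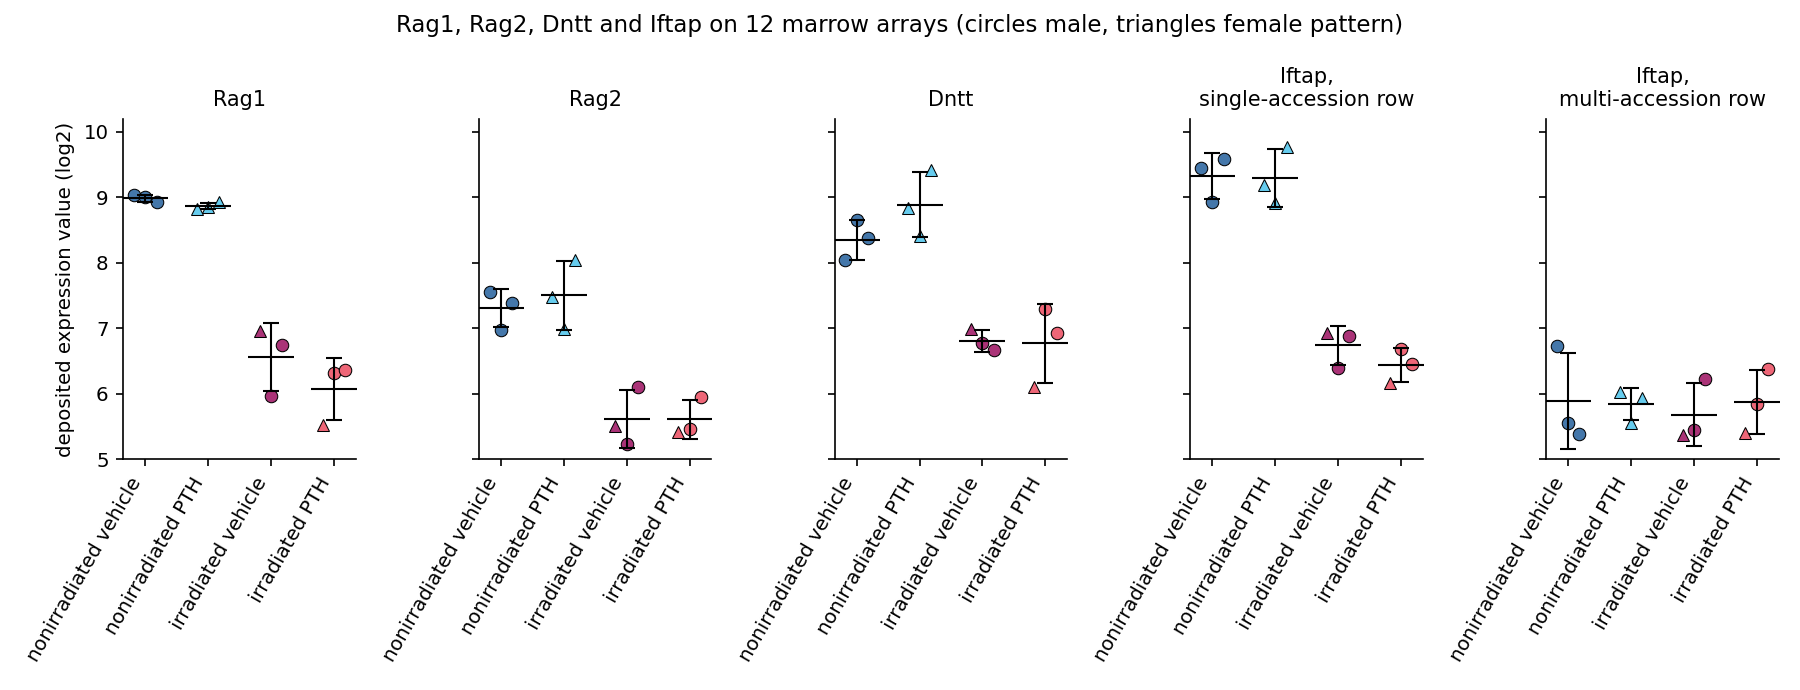
Deposited log2 expression (y axis) of Rag1, Rag2, Dntt and the pair of Iftap rows in the 4 groups (x axis), 1 point per array, with the group mean as a bar and ± 1 SD as whiskers (n = 3); circles are arrays with the male pattern and triangles those with the female pattern. In all panels but the last, the 6 irradiated arrays lie below the 6 nonirradiated ones, with gaps of 0.75 to 1.99; in the multi-accession Iftap row all groups overlap.

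For 4 of the 5 rows, all 6 irradiated arrays lay below all 6 nonirradiated arrays, a separation that 2.71% of all rows showed. Within vehicle marrow 9.72% of rows, and within PTH marrow 10.6%, had irradiated arrays below the nonirradiated ones without overlap, 4 of these 5 rows among them in both. The values that chose the genes are part of these counts, so nothing is read from them. With only male-pattern arrays in vehicle marrow (3 nonirradiated, 2 irradiated), the differences were -2.62 for Rag1, -1.64 for Rag2, -1.63 for Dntt and -2.68 for the single-accession Iftap row. With only female-pattern arrays in PTH marrow (3 nonirradiated, 1 irradiated) they were -3.35, -2.08, -2.78 and -3.12. The multi-accession Iftap row had -0.06 and -0.45.

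In the order of group means, Rag1 and the single-accession Iftap row ran from nonirradiated vehicle over nonirradiated PTH and irradiated vehicle to irradiated PTH marrow. Rag2 and Dntt had nonirradiated PTH marrow first. In each of these 4 rows, the groups of the same irradiation state overlapped and the step between the states did not. The multi-accession Iftap row had means from 5.89 to 5.68, and every neighbour in its order overlapped.

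PTH did not change any of the 5 rows past the threshold, an adjusted p under 0.05 by limma, with Benjamini-Hochberg adjustment over 21789 rows. In nonirradiated marrow 0 of 5 rows were called, where 0% of all rows were. Dntt had the largest difference, 0.54 higher with PTH (SE 0.302, 95% interval -0.12 to 1.20, adjusted p = 1 by limma), and the groups overlapped. Rag2 differed by 0.20 (-0.42 to 0.82), Rag1 by -0.12 (-0.67 to 0.44), the single-accession Iftap row by -0.03 (-0.57 to 0.51) and the multi-accession row by -0.05 (-0.83 to 0.74). Without any 1 array the difference of Dntt ran from 0.28 to 0.77, the lowest being without nonirradiated PTH replicate 3. All vehicle arrays here had the male and all PTH arrays the female pattern, so these 6 arrays alone cannot tell PTH and sex apart. A fit with a term for sex takes that term from the irradiated groups, which held both patterns, and assumes that it is the same in nonirradiated marrow. It gave 0.90 for Dntt (SE 0.432), 0.41 for Rag2 (SE 0.421), -0.01 for Rag1, 0.03 for the single-accession and 0.54 for the multi-accession Iftap row (SE 0.485), each with adjusted p = 0.999 by limma.

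In irradiated marrow, 0 of 5 rows were called between PTH and vehicle, where again 0% of all rows were. Rag1 had the largest difference, -0.49 for PTH minus vehicle (SE 0.255, 95% interval -1.05 to 0.06, adjusted p = 0.845 by limma), with 5.52 to 6.36 against 5.97 to 6.96. This SE and interval use the spread shared by all 4 groups, which for Rag1 was smaller than the spread within the irradiated groups. The difference was -0.30 (-0.84 to 0.24) for the single-accession Iftap row, 0.00 (-0.62 to 0.62) for Rag2, -0.04 (-0.70 to 0.62) for Dntt and 0.19 (-0.59 to 0.97) for the multi-accession Iftap row. Irradiated Rag2 values lay under the median of every array, so a PTH difference of Rag2 may not be visible here. In irradiated vehicle marrow the female-pattern array was the highest of the 3 for Rag1, and in irradiated PTH marrow the lowest. The difference of Rag1 rested in part on single arrays: it was -0.22 without irradiated PTH replicate 1, the female-pattern array, and -0.79 without irradiated vehicle replicate 2. It was -0.21 with array weights and -0.49 with a term for sex, at adjusted p = 0.837 by limma in both.

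The irradiation difference was not called as unequal between vehicle and PTH marrow for any row. The interaction, PTH minus vehicle, was -0.38 for Rag1 (SE 0.361, 95% interval -1.16 to 0.41), -0.20 for Rag2 (-1.08 to 0.68) and -0.57 for Dntt (-1.51 to 0.36). It was -0.27 (-1.03 to 0.50) for the single-accession Iftap row and 0.24 (-0.87 to 1.34) for the multi-accession row. With a term for sex the interaction was -0.93 (SE 0.523) for Dntt, -0.41 for Rag2, -0.49 for Rag1, -0.32 for the single-accession and -0.35 for the multi-accession Iftap row, each with adjusted p = 1 by limma. Without any 1 array it ran from -0.83 to -0.24 for Dntt, from -0.67 to -0.10 for Rag1 and from -0.45 to 0.07 for Rag2. The values nearest 0 for Dntt and Rag1 were those without irradiated PTH replicate 1. In the fit of all 12 arrays, adjusted p by limma ran from 0.742 for Dntt to 0.894 for the multi-accession Iftap row, and 0% of all rows were called. At an unadjusted p under 0.05, 0 of the 5 rows passed in each of the 3 tests, against 391 of 21789 rows for PTH in nonirradiated marrow, 842 for PTH in irradiated marrow and 1181 for the interaction. The interval of PTH in nonirradiated marrow reached 1.20 for Dntt and that of the interaction -1.51, so equal levels were not shown.

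**Figure D2:**
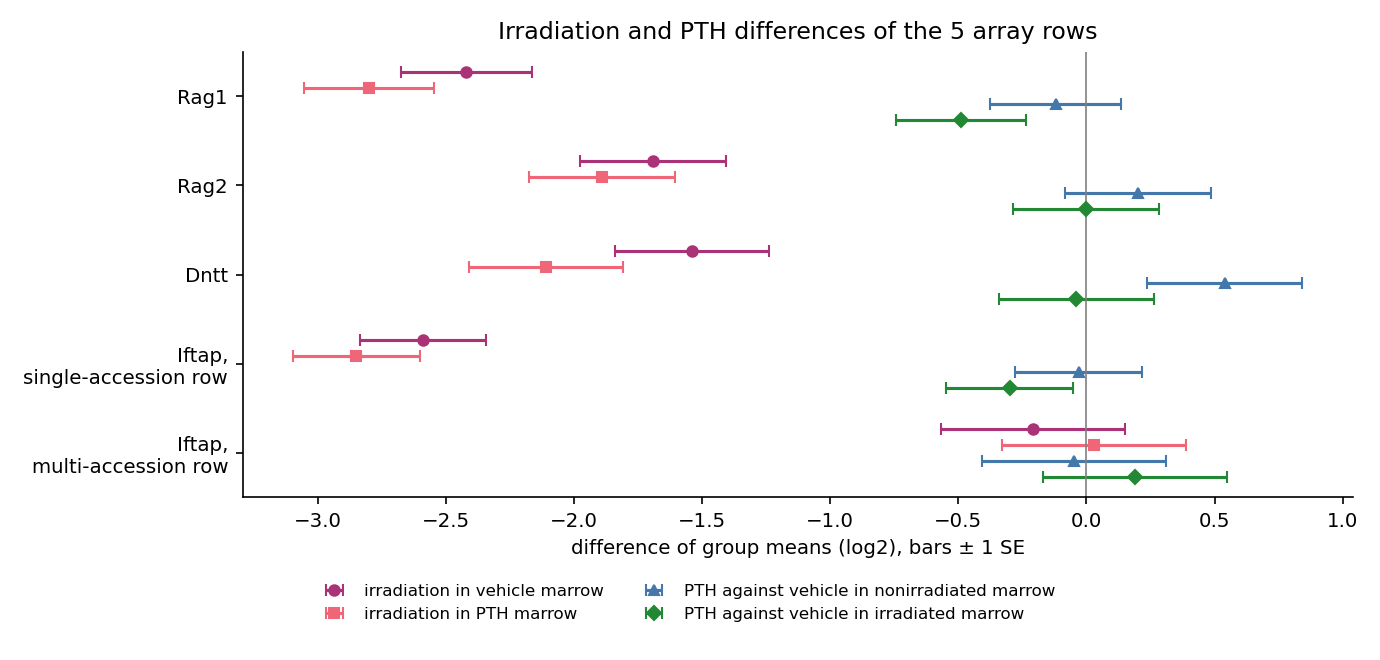
Differences of group means on the log2 scale (x axis) of the 5 array rows (y axis) with ± 1 SE, for irradiation in each treatment (circles, squares) and PTH in each irradiation state (triangles, diamonds). Irradiation differences of Rag1, Rag2, Dntt and the single-accession Iftap row lie from -1.54 to -2.85, while every PTH difference lies between -0.49 and 0.54.

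Within groups, the 4 rows that separated the irradiation states did not rank the arrays alike. Rag1 and Rag2 shared the same highest array in 3 of 4 groups and the whole order in 1. Dntt and the single-accession Iftap row shared the highest array in 3 groups and the order in 2. Rag1 and the single-accession Iftap row deviated to the same side of their group mean on 10 of 12 arrays, and so did Rag2 and that row. On nonirradiated arrays Rag1 deviated only from -0.06 to 0.06, so its side there carries little weight. How often other pairs of rows share sides was not computed. The pair of Iftap rows deviated to the same side on 8 of 12 arrays and shared the highest array in 0 of 4 groups. The multi-accession row and Rag2 deviated to the same side on 10 of 12 arrays and shared the highest array in 3 groups.

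The genes with the most similar profiles were sought by the root mean square difference over the 12 arrays, each gene centred on its own mean. This distance includes the difference with irradiation, for which Iftap and Rag1 had been named. The lists are therefore a description, and nothing is read from the nearness of these genes. For Rag1, the nearest of all genes was Iftap, by its single-accession row (0.284 on the log2 scale), followed by Spib, an ETS-family factor of B and plasmacytoid dendritic cells (0.337), Fcrla, an Fc receptor-like gene of B cells (0.339), Il7r, the interleukin-7 receptor of lymphoid precursors (0.343), and Pax5, the B-lineage commitment factor (0.358). For the single-accession Iftap row, Il7r came first (0.273) and Rag1 next (0.284), then Clec4d, a C-type lectin of myeloid cells (0.340), Fcrla (0.393) and H2-Ob, an MHC class II chaperone subunit of B cells (0.420). Both lists thus held Il7r and Fcrla.

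For Rag2, the nearest genes were B3gnt5, a glycosyltransferase (0.294), Ralgps2 (0.297), Il2ra, the interleukin-2 receptor alpha chain (0.314), Gm9733 (0.318) and Egfl6 (0.322). For Dntt they were Blnk, the adaptor of the B cell receptor (0.265), Egfl6 (0.313), Vpreb3, a pre-B cell receptor associated protein (0.325), Lgr5 (0.334) and Akap12 (0.336). Rag1 and Rag2 were 0.567 apart from each other, and Rag1 and Dntt 0.579. The multi-accession Iftap row varied with an SD of 0.448 over the 12 arrays and was not searched, because its SD was under 0.5.

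None of the measured genes around the Rag locus passed the threshold with irradiation, a count near the share over all rows. Of 5 protein-coding neighbours on each side, all 10 were measured and 0 passed with irradiation in vehicle or PTH marrow by limma, where 1.98% and 2.05% of all rows were called. At an unadjusted p under 0.05, 1 and 3 of the 10 passed, where 2834 and 2825 of 21789 rows did. Traf6, a signalling ubiquitin ligase and the next gene after Rag1, differed by -0.41 (SE 0.263, adjusted p = 0.575 by limma) and -0.68 (SE 0.263, adjusted p = 0.282). Ldlrad3 had the lowest values of the 10, -0.49 and -0.83 (adjusted p = 0.412 and 0.112 by limma), and Lrrc4c, next to Iftap on its other side, differed by -0.04 and 0.12. The others, Api5, Ttc17, Hsd17b12, Alkbh3, Prr5l, Commd9 and Trim44, lay between -0.45 and 0.39 in both treatments. In the tests of PTH and of the interaction, limma called 0 of the 10, with 1 at an unadjusted p under 0.05 for PTH in nonirradiated marrow and 0 in the others.

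**Figure D3:**
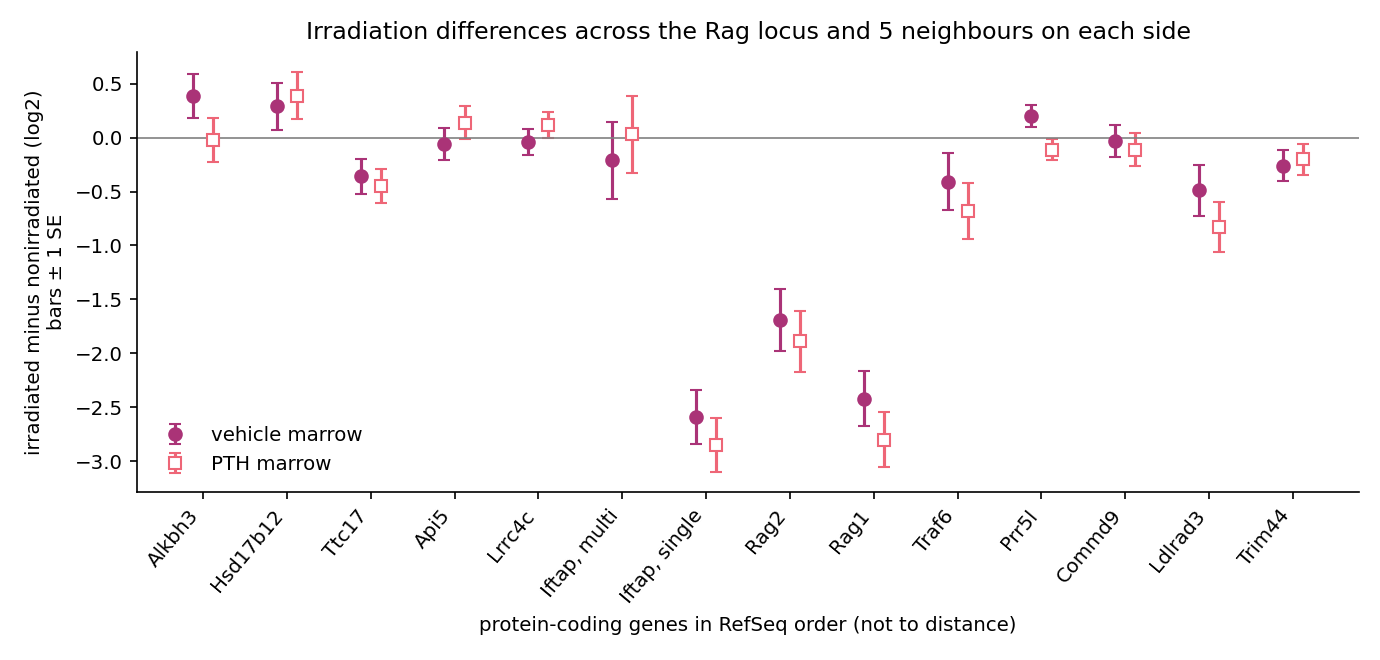
Irradiated minus nonirradiated log2 expression (y axis, ± 1 SE) of the genes at the Rag locus and 5 protein-coding neighbours on each side, in RefSeq order (x axis, not to distance), in vehicle (filled circles) and PTH marrow (open squares). Rag1, Rag2 and the single-accession Iftap row lie between -1.69 and -2.85, and the multi-accession Iftap row and all 10 neighbours between -0.83 and 0.39.

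Of the cofactors of V(D)J recombination, Lig4 and Xrcc6 were called, each in 1 treatment, and the other 18 in neither. Most of these genes process and join the ends that RAG1 and RAG2 cut, and most cells use them to repair double-strand breaks. Of 20 measured end joining and recombination cofactors, 1 fell in vehicle marrow and 1 in PTH marrow, with a median difference of -0.05 in both, against -0.03 and 0.01 over all rows. These counts lie near the 1.98% and 2.05% called over all rows. Lig4, the ligase that seals the joint, fell by 1.10 in vehicle marrow (SE 0.223, adjusted p = 0.0265 by limma) and had -0.89 in PTH marrow (adjusted p = 0.0706). Its call ended, at adjusted p from 0.0563 to 0.127, when any 1 nonirradiated vehicle array was left out or replicate 1 or 2 of the irradiated vehicle group, and with sex as a term (0.0679). Xrcc6, the Ku70 end-binding subunit, fell by 0.68 in PTH marrow (adjusted p = 0.0492 by limma), a call that ended in 11 of 12 fits that left out an array, all but that without nonirradiated vehicle replicate 2. A term for sex ended it too (0.396). With array weights the count in PTH marrow was 4.

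The relatives of Dntt among the family X polymerases, Polm and Poll, did not pass. Polm had -0.40 and -0.66 (adjusted p = 0.363 and 0.0912 by limma). Poll, named after its values were seen, had 0.04 and -0.20. Atm, the kinase that responds to double-strand breaks, had -0.41 and -0.37 (adjusted p = 0.252 and 0.310). Prkdc, Xrcc5, Xrcc4, Hmgb1 and Hmgb2, which include the catalytic kinase of end joining and DNA-bending partners of the recombinase and were also named after their values were seen, lay between -0.26 and 0.37.

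Transcription factors that are known to act on Rag genes or in the same cells were counted next. This list, like all 8 lists, was chosen with earlier results of these data known. The irradiation counts and p-values of the lists are therefore descriptions and no independent support. Pax5, Ikzf3, Satb1, Myb, Bach2 and Foxp1 fell in both treatments. Of 18, 6 fell and 0 rose in vehicle marrow, with a median of -0.63, and 9 fell and 0 rose in PTH marrow, with a median of -0.95. Over all rows, 193 and 328 of 21789 fell. Pax5 had -2.09 and -2.40 (adjusted p = 0.00116 and 0.000318 by limma), and Ikzf3, which encodes Aiolos, had -2.38 and -2.76. Satb1, a chromatin organizer of lymphoid cells (-1.40 and -1.85), and Myb, a regulator of progenitors (-1.12 and -1.28), followed. Bach2 (-2.17 and -2.64) and Foxp1 (-0.97 and -1.22) were named after their values were seen. Foxo1, a direct activator of Rag transcription in B cells that was named after its values were seen, had -0.82 in vehicle marrow (adjusted p = 0.0575) and fell by 1.38 in PTH marrow (adjusted p = 0.0031). Tcf3, likewise, had -0.01 and -0.63 and did not pass.

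The count of 6 in vehicle marrow depended on single arrays. It was 3 when nonirradiated vehicle replicate 2, nonirradiated vehicle replicate 3 or irradiated vehicle replicate 3 was left out, and 2 when irradiated vehicle replicate 2 was. With only the compared groups fitted it was 3, and with array weights 10. Myb lost its call without any of those 4 arrays, at adjusted p from 0.0572 to 0.0743, and Satb1 without irradiated vehicle replicate 2 (0.054). Bach2 and Foxp1 lost theirs without the same 4 arrays, at adjusted p by limma from 0.0744 to 0.0958 and from 0.0896 to 0.11. In PTH marrow the count was 4 with sex as a term, and Myb then had adjusted p = 0.068. Foxp1 and Bach2 had adjusted p = 0.064 and 0.0598 by limma in that fit.

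Of 11 measured pro-B and pre-B genes, 5 fell and 1 rose in vehicle marrow, with a median of -0.92, and 8 fell and 0 rose in PTH marrow, with a median of -1.25. Over all 21789 rows, 193 fell and 239 rose in vehicle marrow, and 328 fell and 118 rose in PTH marrow. Cd79b, a B cell receptor subunit, had -1.88 and -2.59, Blk, a B cell kinase, -1.69 and -1.90, Blnk -1.58 and -2.12 and Vpreb3 -1.36 and -2.26, each called in both treatments. Cd79b, Blk and Blnk are also expressed by mature B cells. Of the surrogate light chain genes of pre-B cells, named after their values were seen, Igll1 had -0.92 in vehicle marrow (adjusted p = 0.0922 by limma) and -1.25 in PTH marrow (adjusted p = 0.0214). Vpreb1 (-0.52 and -0.68) and Vpreb2 (-0.05 and -0.17) passed in neither. Vpreb3 lost its call in vehicle marrow without irradiated vehicle replicate 2 (adjusted p = 0.054). Enpep, the aminopeptidase BP-1, was the gene that rose, by 1.24 in vehicle marrow (adjusted p = 0.00889 by limma), with 0.44 in PTH marrow, and was named after its values were seen. The count in PTH marrow was 5 with only the compared groups fitted, without nonirradiated PTH replicate 1 and without nonirradiated PTH replicate 3.

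The mean of the pro-B and pre-B genes ran from 8.28 to 8.80 on nonirradiated arrays and from 7.10 to 7.67 on irradiated arrays, without overlap. This was not particular to that list. The early lymphoid, mature B and Rag-linked transcription factor means did not overlap either. The end joining and intraflagellar transport means did overlap. The part of these differences in cell markers in the lower levels of Rag1, Rag2, Dntt and the single-accession Iftap row was not tested. For the next 2 lists, the counts over all 21789 rows were 193 lower in vehicle and 328 lower in PTH marrow. Of 7 early lymphoid genes, 2 fell in vehicle and 3 in PTH marrow, with medians of -0.41 and -0.74. They were Il7r (-2.19 and -2.58) and Ly6d, a marker of B-lineage-biased progenitors (-1.09 and -1.48), in both, and Kit, a progenitor receptor (-1.27), in PTH marrow. That call of Kit ended when nonirradiated PTH replicate 1 (adjusted p = 0.0635) or replicate 2 (0.0729) was left out, and with a term for sex (0.152). Cd34, a progenitor surface marker, had -0.37 and -0.65 and did not pass. Of 7 mature B genes, 5 fell in each treatment, with medians of -1.79 and -2.19: Ms4a1 (-4.33 and -4.29), Cd72 (-2.83 and -3.08), H2-Ob (-2.01 and -2.63), Cd22 (-1.79 and -2.19) and, named after its values were seen, Fcer2a (-1.58 and -2.13).

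T cell precursors also use the recombinase, and plasmacytoid dendritic cells can carry traces of these genes, so markers of both were counted. Beside them, 193 of all 21789 rows fell in vehicle marrow and 328 in PTH marrow. Of 10 T cell genes, 1 fell in vehicle marrow, Cd2 (-1.86), which B cells carry as well in mice, and 3 in PTH marrow, Cd2 (-2.09), Cd3e (-0.90) and Cd8a (-0.88), with medians of -0.28 and -0.51. Cd3g had -0.66 and -0.86 and did not pass. Ptcra (0.12 and 0.25), Bcl11b (-0.02 and -0.13) and Cd4 (0.16 and -0.46), named after their values were seen, did not pass either. The PTH count was 1 with sex as a term, without both narrow-range arrays and without any 1 of the 3 nonirradiated PTH arrays. The mean of the T cell list was 6.70 to 7.04 on nonirradiated and 6.30 to 6.44 on irradiated arrays. Of 7 plasmacytoid dendritic genes, 2 fell in vehicle marrow, Spib (-2.57) and Siglech (-1.53), and 3 in PTH marrow, Spib (-2.93), Siglech (-1.58) and Ccr9 (-1.55). Medians were -0.17 and -0.76, and the list mean was 7.61 to 8.08 on nonirradiated and 6.46 to 7.38 on irradiated arrays. The call of Ccr9 ended, at adjusted p from 0.0701 to 0.127, when replicate 1 or 3 of either PTH group was left out, and with a term for sex (0.243). Bst2, which did not pass, had 0.74 and 0.24. What part these cells have in the levels of the recombination genes was not tested.

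Intraflagellar transport genes build the machinery that Iftap is named for. Of 21 measured, 0 were called by limma with irradiation in vehicle or PTH marrow, a count near the 1.98% and 2.05% over all rows. At an unadjusted p under 0.05, 0 and 3 passed, where 2834 and 2825 of 21789 rows did, and the median was 0.00 in both. Ift22 had the smallest p with irradiation averaged over both treatments, with -0.35 in vehicle and -1.03 in PTH marrow (adjusted p = 0.673 and 0.1 by limma). Ift172 (-0.15 and -0.45), Ttc21b (-0.13 and -0.35) and Ift43 (0.12 and 0.24) followed. In PTH marrow, 1 gene of this list was called with arrays centred on housekeeping genes, with the replicate block and without irradiated PTH replicate 2.

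PTH did not change any partner gene past the threshold. Of 101 measured genes in the 8 lists, limma called 0 for PTH in nonirradiated marrow, 0 for PTH in irradiated marrow and 0 for the interaction, with 3, 8 and 5 at an unadjusted p under 0.05. Each test also called 0% of all rows. At the unadjusted threshold, 2.97%, 7.92% and 4.95% of the partner genes passed, against 1.79%, 3.86% and 5.42% of all rows. The medians of the 8 lists ran from -0.04 (end joining) to 0.23 (pro-B and pre-B) for PTH in nonirradiated marrow, and from -0.30 (plasmacytoid dendritic) to 0.02 (intraflagellar transport) in irradiated marrow, against 0.01 over all rows in both. These are descriptions without a test.

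**Figure D4:**
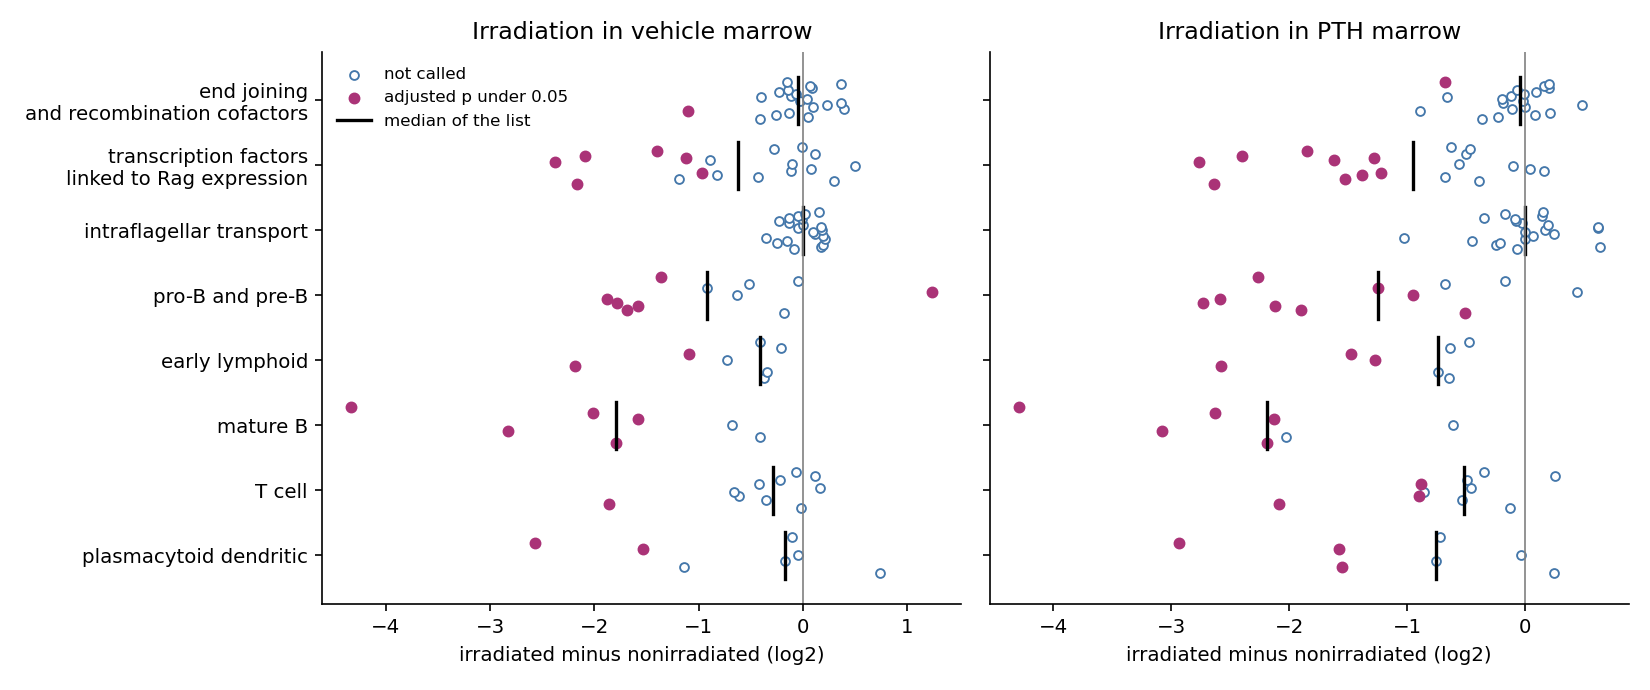
Irradiated minus nonirradiated log2 expression (x axis) of the 101 measured genes of 8 lists (y axis) in vehicle (left) and PTH marrow (right), 1 point per gene, filled where the adjusted p by limma was under 0.05, with the list median as a bar. The medians of end joining and intraflagellar transport genes lie at -0.05 and 0.00 in both panels, and those of mature B genes at -1.79 and -2.19.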

How the data were processed

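Total RNA of whole bone marrow flush was measured on 12 whole-transcript arrays, with 3 in each of 4 groups taken from the sample titles. The authors deposited log2 expression values (the scale is inferred from their range). The submitters' processing notes list affy, RMA and limma without versions, and name no genome build. Of 35556 rows, 21789 had 1 gene symbol, 1621 had several and 12146 were not listed with one. Symbols were updated through gene identifiers, and 91 rows had no match in RefSeq's table of GRCm38.p6 and kept theirs.

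The 21789 rows were fitted as 4 group means (limma 3.58.1, R 4.3.3) with 8 residual degrees of freedom, and Benjamini-Hochberg adjusted p under 0.05 was called. List genes used the row with the highest mean; 101 of 109 were measured. Between the irradiated groups, deviations from the group means correlated over 0.1 for all 3 pairs of arrays with the same replicate number (0.473, 0.154 and 0.581). So did vehicle replicate 1 with PTH replicate 2 (0.392) and vehicle replicate 2 with PTH replicate 1 (0.176), while the remaining pairs ran from -0.524 to -0.199. Whether the numbers pair these groups was thus not settled. The main fit has no term for pairing, and a fit with a replicate block is given below. The labels state no pairing, and replicate 1 had the female pattern in both. The fit was also run on simulated data with independent noise in each row. Such data lack the correlated deviations of these arrays, so that run does not cover false calls that arise from them. The number of arrays limits precision.

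Members, lists, tests and alternatives were chosen with earlier results of these data known. The text names every member row, up to 4 genes of each list with the smallest p for irradiation averaged over both treatments, 5 neighbours on each side and the 5 nearest genes of member rows with an SD over 0.5; other genes are marked where named. Lists held end joining, Rag-linked transcription factor, intraflagellar transport, pro-B and pre-B, early lymphoid, mature B, T cell and plasmacytoid dendritic genes. Alternatives varied the rows fitted, scaling, variance model, array weights, groups, replicate block, sex and arrays left out.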

Additional observations from a re-analysis of the deposited data

How the results depend on the processing

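The lower level of Rag1, Rag2, Dntt and the single-accession Iftap row in irradiated marrow kept its direction under every alternative run. It moved by more than 1 SD between replicates for Rag1 in vehicle marrow with array weights (-2.81), and in PTH marrow with arrays of 1 sex pattern, chosen after seeing the data, for Rag1 (-3.35) and Dntt (-2.78); that setting holds 1 irradiated array. The multi-accession Iftap row in PTH marrow had -0.36 with sex as a term and -0.45 with arrays of 1 sex pattern, and its sign was not stable, from -0.49 to 0.21 in vehicle marrow. The cause was not tested. Without any 1 array, Rag1 lay from -2.62 to -2.13 in vehicle and -2.95 to -2.53 in PTH marrow.

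With PTH, 0 of 5 rows were called in either irradiation state or for the interaction under any alternative. Partner genes called were 23 in vehicle marrow (17 to 26 without 1 array) and 32 in PTH marrow (22 to 32 without 1 array, 20 with sex as a term). Over all rows, 432 and 446 were called, and 203 to 1247 and 191 to 1134 over the alternatives, with 0 to 4 for PTH in nonirradiated marrow.

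Over all groups, replicate numbers were not taken to pair the arrays: correlations of deviations from the group means ran from -0.646 to 0.6 for 18 pairs with the same number, 10 of them over 0.1, and from -0.607 to 0.621 for 36 with other numbers, 12 of them over 0.1. With the replicate block, all rows called were 498 and 630, partner genes called were 25 and 34, and 0 of 5 rows were called for PTH. The interaction of Dntt then had adjusted p = 0.665 and the PTH difference of Rag1 in irradiated marrow 0.745 by limma; the block changed no call of these 5 rows.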
